A study of Mus musculus with 48 samples.

Results

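The miR-181 family was described over the 48 small RNA libraries of a mouse study of peripheral ganglia. Its members were taken by name from the table of mature microRNA (miRNA) counts: mmu-miR-181a-5p, mmu-miR-181b-5p, mmu-miR-181c-5p and mmu-miR-181d-5p (mmu stands for mouse and is left out from here on), which are 4 of its 1978 rows. The 3p arms of the same hairpins, 6 further rows, are given beside them. Balb/c mice aged 2.5 months received 0.2 mL of saline intraperitoneally, alone or carrying 2.5 mg/kg of E. coli lipopolysaccharide (LPS), an endotoxin used to provoke systemic inflammation. Ganglia were taken at 4 h, 24 h or 7 d: the sympathetic superior cervical ganglion (SCG) and the trigeminal ganglion (TG), whose sensory neurons serve the head. This gave 12 groups of 4 libraries, SCG or TG, saline or LPS, at each time, and the labels name no engineered allele. In each group replicates 1 and 2 were female and replicates 3 and 4 male. A library holds RNA of all cells of the ganglia of 1 mouse, and the labels do not tie SCG and TG libraries to a mouse.

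miR-181 is a family of miRNAs conserved among vertebrates, best known for setting the sensitivity of T cell receptor signalling and for its expression in brain and developing lymphocytes. A miRNA guides a silencing complex to messenger RNAs mainly through its seed, the bases near its 5′ end, so members with a shared seed can bind the same sites. Each hairpin yields a 5p and a 3p arm, and the 5p arm is the one usually loaded as the guide.

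The 5p arms are shown because the family is defined by their seed and because some members differ at very few positions, which matters for how reads can be assigned. Sequences are the RefSeq mature sequences on GRCm38.p6, written 5′ to 3′, and capitals mark the seed, bases 2 to 8.
miR-181a-5p: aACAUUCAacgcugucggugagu
miR-181b-5p: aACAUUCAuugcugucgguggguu
miR-181c-5p: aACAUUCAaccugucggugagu
miR-181d-5p: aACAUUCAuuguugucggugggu

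The 4 members shared the seed ACAUUCA, and no other of the 1679 table rows with a RefSeq mature sequence had it. Outside the seed, with positions counted from 1 at the 5′ end, miR-181a-5p and miR-181b-5p differed by A9U, C10U and A21G, with 1 gap. The alignment of miR-181a-5p with miR-181c-5p held no substitution and 1 gap. From miR-181b-5p to miR-181d-5p there was 1 substitution, C12U, and 1 gap at the 3′ end. How the authors assigned reads between such similar members was not given, so a read with an error at such a position could have been counted for the other member, and the levels of the less abundant miR-181c-5p and miR-181d-5p carry that uncertainty.

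The 3p arms are shown because they, unlike the 5p arms, tell the copies of miR-181a and miR-181b apart.
miR-181a-1-3p: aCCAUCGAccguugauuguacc
miR-181a-2-3p: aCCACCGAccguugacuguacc
miR-181c-3p: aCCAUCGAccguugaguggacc
miR-181b-1-3p: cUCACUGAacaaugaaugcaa
miR-181b-2-3p: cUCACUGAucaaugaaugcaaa
miR-181d-3p: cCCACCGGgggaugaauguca

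Among these, miR-181a-1-3p and miR-181c-3p shared a seed, as did miR-181b-1-3p and miR-181b-2-3p. The hairpins lie in 3 pairs in the mouse genome. On GRCm38 (GENCODE M21 annotation) Mir181a-1 is at chr1:137966455-137966541 and Mir181b-1 at chr1:137966639-137966718, both on the plus strand, 97 bases apart and inside an exon of the long noncoding RNA A430106G13Rik. Mir181a-2 at chr2:38852735-38852810 and Mir181b-2 at chr2:38853830-38853918, also on the plus strand, are 1019 bases apart in an intron of Nr6a1, a nuclear receptor gene transcribed from the opposite strand. Mir181d at chr8:84178716-84178787 and Mir181c at chr8:84178873-84178961, on the minus strand, are 85 bases apart in an intron of Nanos3 on the same strand. miR-181a-5p and miR-181b-5p can each come from 2 of these loci and have 1 row each, so their levels sum over both. The submitters' processing notes name GRCm39, and the count table itself holds no coordinates.

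The libraries held 1774047 to 5592766 miRNA counts, with 742 to 916 miRNAs detected. Depth differed by ganglion, with a median of 2916061 counts in SCG and 4101287 in TG. Mean RNA yield was 64 ng/uL for SCG and 193 ng/uL for TG. RNA integrity numbers of the sequenced samples ran from 6.4 to 9.3 and were not given per library. Within groups, log2 levels of replicate pairs correlated at 0.925 to 0.988 in 69 pairs and at 0.711 to 0.752 in the 3 pairs that held SCG 7d LPS replicate 2. That library stood apart, and the results that turn on it are given with and without it. Its summed leukocyte markers (4 miRNAs, among them miR-142a-3p) were at 9670 CPM against 288.5 to 757.6 CPM in the other 23 SCG libraries, and its summed glial markers (3 miRNAs, none at 0) at 40.4 CPM against 372.7 to 1009 CPM. Muscle markers, summed over 4 miRNAs, were high there (35395 CPM) and in SCG 4h saline replicates 1 (94360 CPM) and 2 (20099 CPM), against a median of 565.7 CPM in SCG without that 7d library. The 3 sensory neuron markers, the miR-183 cluster, summed to 57037 to 88281 CPM over the TG libraries and to 220.9 to 21076 CPM over the SCG libraries, without overlap. The highest SCG value was that of SCG 24h saline replicate 1, against an SCG median of 1173 CPM without the 7d LPS library.

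Levels are given as CPM, the read count normalised to library size after scaling by trimmed mean of M-values (TMM), as mean ± SD. miR-181a-5p was the most abundant member in every library, followed by miR-181b-5p, miR-181d-5p and miR-181c-5p. After saline miR-181a-5p averaged 3503 ± 512 CPM over the SCG and 5943 ± 1452 CPM over the TG libraries (SD, n = 12 each), and miR-181b-5p at 809.6 ± 65.0 and 1561 ± 337 CPM. miR-181d-5p averaged 518.1 ± 38.6 CPM over the SCG and 348.4 ± 53.3 CPM over the TG libraries, and miR-181c-5p at 36.4 ± 4.58 and 33.1 ± 3.83 CPM. The members are of nearly equal length (22 to 24 bases), so counts were compared between them without a length term. Whether each is ligated and sequenced with equal efficiency was not tested.

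By abundance miR-181a-5p had a median rank of 42 among all miRNAs in SCG libraries and 34 in TG libraries, and miR-181c-5p of 250 and 266. Raw counts behind these levels were 5393 to 44125 for miR-181a-5p but 66 to 213 for miR-181c-5p, whose values therefore carry the most counting error of the 4. The members together made up 0.519% ± 0.0554 of the miRNA counts in SCG and 0.760% ± 0.184 in TG after saline (SD, n = 12 each). Within that sum, the share of miR-181d-5p was 10.8% ± 1.59 in SCG and 4.59% ± 1.23 in TG, and that of miR-181b-5p 16.7% ± 1.08 and 19.9% ± 0.899.

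**Figure D1:**
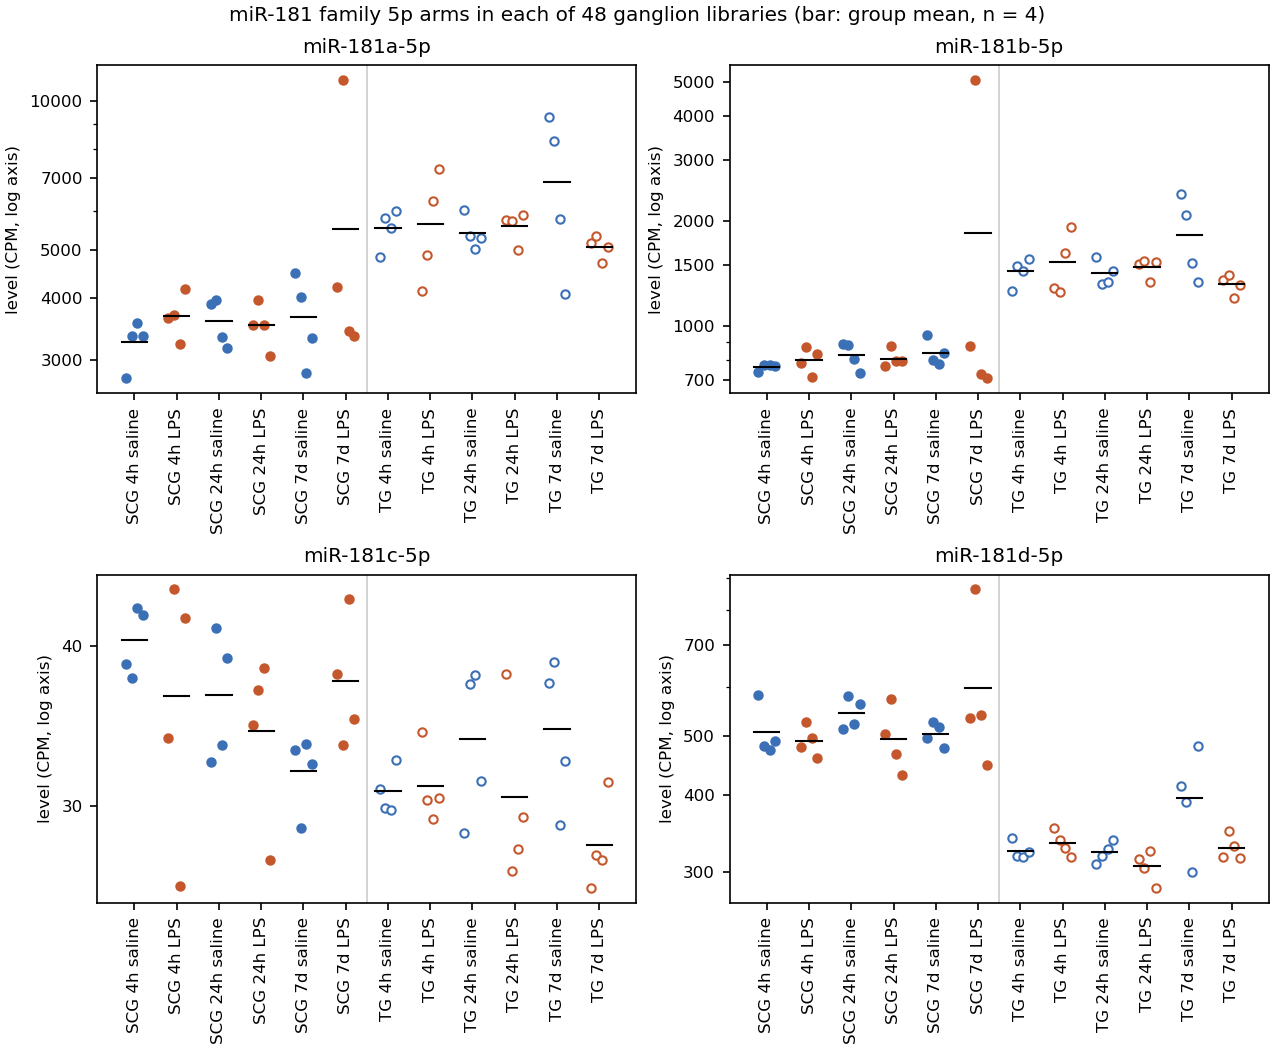
Level of each 5p arm in every library (CPM, log axis) by group. Filled points are SCG, open points TG, blue saline and orange LPS, and the bar is the mean of 4 libraries. miR-181a-5p and miR-181b-5p sit higher in TG and miR-181d-5p lower, and 1 SCG 7d LPS library reaches 11027 CPM for miR-181a-5p and 5067 CPM for miR-181b-5p.

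Ordered by mean level over the 12 groups, miR-181a-5p and miR-181b-5p had the TG groups on top except for SCG 7d LPS, whose mean was carried by replicate 2. Of the 11 steps between neighbouring groups, 1 exceeded the larger SD of the pair for each of these miRNAs, and in it the 4 libraries of each group did not overlap. For miR-181a-5p this was the step from TG 7d LPS (5076 ± 269 CPM) to SCG 4h LPS (3687 ± 382 CPM). For miR-181b-5p it lay between TG 7d LPS (1318 ± 85.4 CPM) and SCG 7d saline (839.1 ± 71.2 CPM). How many of all miRNAs have such a step was not counted, so it was not read as particular to these members. miR-181d-5p ran the other way, with the 6 SCG groups (490.0 to 596.7 CPM) above the 6 TG groups (306.9 to 396.4 CPM), and 1 of its 11 steps exceeded the larger SD, that from SCG 4h LPS to TG 7d saline. None of the 11 steps of miR-181c-5p did, from 40.4 ± 2.52 CPM in SCG 4h saline at the top to 28.0 ± 2.34 CPM in TG 7d LPS at the bottom (SD, n = 4 for each group).

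The first comparison asked how the family differed between the sensory and the sympathetic ganglion after saline. miR-181b-5p was 1.82-fold and miR-181a-5p 1.60-fold higher in TG than in SCG, and miR-181d-5p was 1.57-fold lower. miR-181b-5p ranged from 733.9 CPM through a median of 790.2 to 940.1 CPM in the 12 SCG libraries and from 1257 CPM through 1464 to 2394 CPM in the 12 TG libraries. The ranges did not overlap, but how many of all miRNAs have ranges apart between the ganglia was not counted. The TG to SCG difference was 0.86 ± 0.07 on the log2 scale (estimate ± SE, adjusted p = 5.04e-10, edgeR's quasi-likelihood test, Benjamini-Hochberg over all miRNAs tested).

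miR-181a-5p was at 2752, 3350 and 4504 CPM in SCG (lowest, median, highest) and at 4077, 5665 and 9277 CPM in TG. Of the 12 TG libraries, 11 were above every SCG library, and the exception was TG 7d saline replicate 4. The log2 difference was 0.68 ± 0.09 (edgeR adjusted p = 8.99e-07). miR-181d-5p was at 473.2, 515.0 and 582.2 CPM in SCG and at 300.5, 325.4 and 480.3 CPM in TG, with 11 of 12 TG libraries below every SCG library and the same library as the exception. The log2 difference was -0.65 ± 0.07 (edgeR adjusted p = 2e-08).

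miR-181c-5p overlapped widely between the ganglia, at 28.9, 35.7 and 42.8 CPM in SCG and 28.6, 32.0 and 38.9 CPM in TG. Its log2 difference of -0.20 ± 0.08 passed (edgeR adjusted p = 0.0238) but was lost with size factors by relative log expression (-0.15, adjusted p = 0.109), with DESeq2 (-0.15, adjusted p = 0.128) and without the low-count filter (-0.07, adjusted p = 0.724). Leaving out 1 library ended it in 18 of 24 cases, with values from -0.21 to -0.11, and it held without SCG 24h saline replicates 1 or 3, SCG 7d saline replicates 2 or 4, or TG 24h saline replicates 2 or 3. Another scaling or filter moved all miRNAs together, by 0.05, -0.07 and 0.125 in the median for relative log expression, library totals and no filter.

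So 4 of 4 members passed, in a comparison where 66.4% of the 541 miRNAs tested did (31.4% higher in TG, 34.9% lower), and the count alone was near that background. These are bulk samples, in which fewer cells of a type and less RNA per cell cannot be told apart. Marker lists moved with the ganglion as well. Over TG against SCG libraries without 7d LPS replicate 2, the summed neuronal list (5 of 5 miRNAs in the table) was at 26318 to 57730 against 8635 to 19127 CPM and the glial list (3 of 3) at 1855 to 3912 against 372.7 to 1009 CPM. The mesenchymal list (5 of 5) was at 7189 to 25022 against 14013 to 182876 CPM. The muscle list (4 of 4) had medians of 5970 CPM in TG and 565.7 CPM in SCG, and the red cell list (4 of 4) of 1987 and 848.2 CPM, with ranges that overlapped. Of the glial list miR-219a-5p was at 0 in 20 of the 24 SCG libraries. Their part in the family's differences was not tested.

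After LPS the same comparison gave -0.71 ± 0.09 for miR-181d-5p (edgeR adjusted p = 1.56e-06) and -0.29 ± 0.10 for miR-181c-5p (adjusted p = 0.0239). miR-181d-5p did not overlap, with 431.9 to 863.0 CPM in SCG and 283.3 to 353.6 CPM in TG. Such separation was not counted over all miRNAs here either. miR-181a-5p (0.38 ± 0.18, adjusted p = 0.0818) and miR-181b-5p (0.47 ± 0.29, adjusted p = 0.181) did not pass, against 51.6% of 560 miRNAs that did (24.3% higher in TG, 27.3% lower). Without SCG 7d LPS replicate 2 the values were 0.59 for miR-181a-5p (adjusted p = 8.72e-07) and 0.86 for miR-181b-5p (adjusted p = 3.28e-10). All 4 members then passed, but the share of all miRNAs that passed without that library was not counted. With library totals as the only scaling, the median of all miRNAs in this comparison moved by -0.122.

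**Figure D2:**
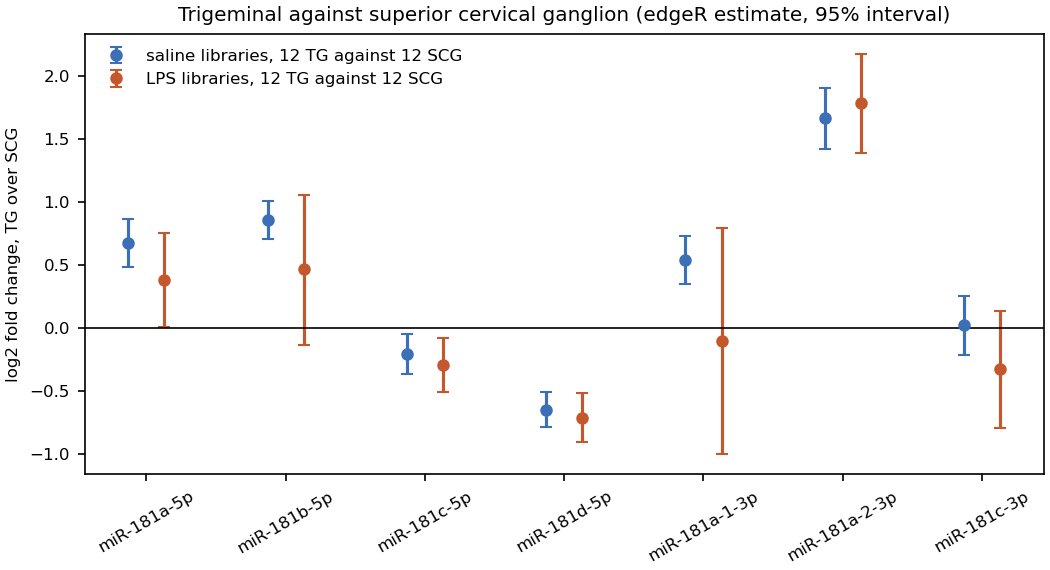
Log2 fold change of TG over SCG for the 5p arms and for 3 of the 3p arms, from 12 TG and 12 SCG libraries after saline (blue) and after LPS (orange), with 95% intervals. miR-181a-2-3p lies highest (1.67 and 1.78) and miR-181d-5p lowest (-0.65 and -0.71), and the wide orange intervals of miR-181b-5p and miR-181a-1-3p include SCG 7d LPS replicate 2.

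The 3p arms separated the 2 miR-181a loci. miR-181a-2-3p, from the chromosome 2 locus, was 3.17-fold higher in TG, while miR-181a-1-3p, from the chromosome 1 locus, was 1.46-fold higher. In saline libraries miR-181a-2-3p was at 21.2, 30.9 and 53.8 CPM in SCG (lowest, median, highest) and at 84.8, 112.4 and 127.2 CPM in TG. All 12 TG libraries lay above all 12 SCG libraries, a separation that was not counted over all miRNAs. The log2 difference was 1.67 ± 0.12 (edgeR adjusted p = 3.06e-11). miR-181a-1-3p was at 16.3, 25.9 and 30.2 CPM in SCG and 30.1, 37.0 and 50.6 CPM in TG. TG and SCG touched in 1 library each, and the log2 difference was 0.54 ± 0.09 (edgeR adjusted p = 2.07e-05).

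miR-181a-1-3p thus made up 42.8% ± 7.59 of the 2 arms in SCG and 25.6% ± 3.60 in TG after saline (SD, n = 12 each). The within-library log2 ratio of miR-181a-1-3p to miR-181a-2-3p, which no scaling between libraries can move, was -0.42 ± 0.45 in SCG and -1.55 ± 0.27 in TG. It differed by -1.13 (p = 1e-05, two-sided permutation test and the smallest p it can give, adjusted p = 1.6e-05 over 8 ratios). TG saline libraries spanned -1.88 to -1.07 and SCG saline libraries -1.03 to 0.40, without overlap. Separation of this kind was not counted over ratios of other miRNA pairs. In the nearest libraries miR-181a-1-3p made up 32.7% (SCG 24h saline replicate 1, 95% Wilson interval 27.1 to 38.7) and 32.2% (TG 7d saline replicate 2, 28.9 to 35.6). Their intervals of counting error overlapped. The SCG library nearest to TG in this ratio, and the highest of SCG in miR-181a-2-3p (53.8 CPM), was 24h saline replicate 1, whose sensory neuron list was at 21076 CPM. Without it miR-181a-2-3p differed by 1.73 (edgeR adjusted p = 2.17e-11). Read as a share of loci, this assumes that a 3p arm is equally stable whichever locus it comes from, which was not tested.

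miR-181c-3p did not pass between the ganglia (0.02 ± 0.11, edgeR adjusted p = 0.88) and had 10 to 84 counts per library. The 3p arms of miR-181b and miR-181d were too low to test. miR-181b-1-3p reached 57 counts, in SCG 7d LPS replicate 2, and at most 12 in the SCG saline libraries. miR-181b-2-3p had at most 9 counts and miR-181d-3p at most 4.

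**Figure D3:**
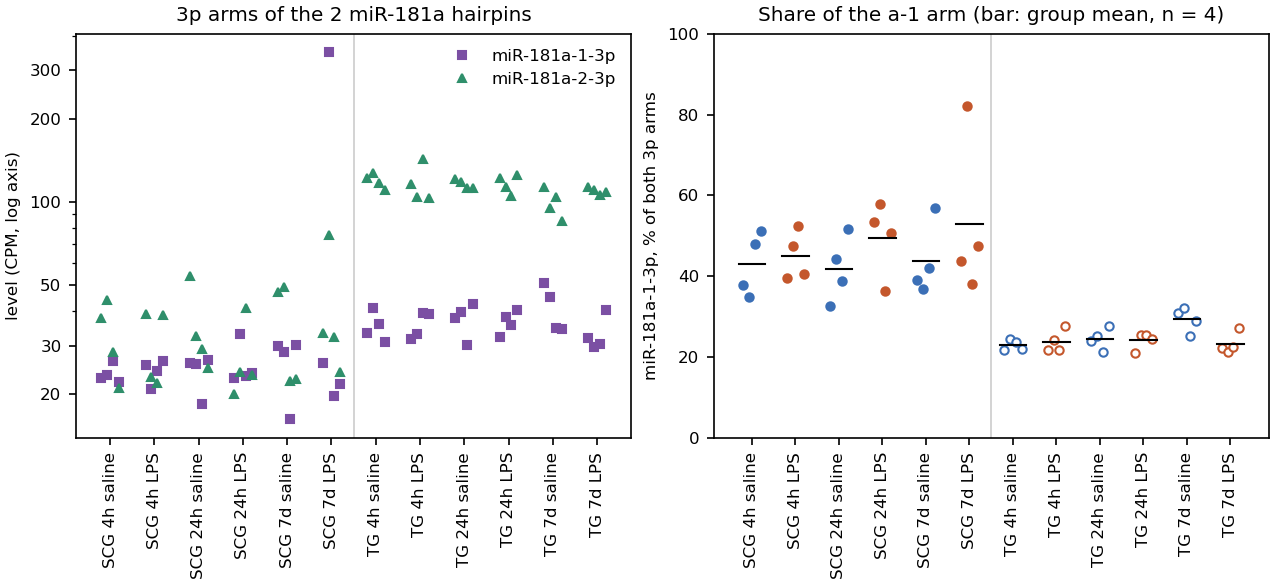
Left, level of the 3p arms of both miR-181a hairpins in every library (CPM, log axis), squares for a-1 and triangles for a-2. Right, miR-181a-1-3p as a percent of the 2 arms, filled for SCG, open for TG, blue saline, orange LPS, bar the mean of 4. The triangles rise from SCG to TG more than the squares, and the SCG 7d LPS library at 82.1% is replicate 2.

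Ratios within a library were used for the members as well. Of the 8 ratios tested between the ganglia after saline, 7 passed. The ratios between members reuse the member levels compared above, so they are not separate results. In that comparison 66.4% of 541 miRNAs passed by edgeR. How often ratios of other miRNA pairs differ between the ganglia was not counted, so the count of 7 was not read as particular to the family. miR-181b-5p over miR-181d-5p had log2 values of 0.34 to 0.93 in SCG and 1.47 to 2.53 in TG, with no overlap, and differed by 1.51. miR-181a-5p over miR-181d-5p differed by 1.32, miR-181b-5p over miR-181c-5p by 1.06 and miR-181a-5p over miR-181c-5p by 0.88, each with p = 1e-05 (permutation test, adjusted p = 1.6e-05). The pair whose ratio differed most, miR-181b-5p and miR-181d-5p, has 1 substitution and 1 gap between its sequences. The pair miR-181a-5p and miR-181c-5p has 1 gap and no substitution. The part of read assignment in these ratios was not tested.

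miR-181c-5p and miR-181d-5p come from hairpins 85 bases apart, yet their ratio also differed between the ganglia. Its log2 value was -3.83 ± 0.20 in SCG and -3.38 ± 0.20 in TG, a difference of 0.44 (permutation p = 7e-05, adjusted p = 9.33e-05). The ranges, -4.17 to -3.46 in SCG and -3.87 to -3.09 in TG, overlapped. miR-181a-5p over miR-181b-5p differed least of those that passed, with 2.10 ± 0.14 in SCG and 1.92 ± 0.10 in TG, a difference of -0.18 (permutation p = 0.00075, adjusted p = 0.000857). The ratio of miR-181c-3p to miR-181c-5p differed by 0.23 and did not pass (permutation p = 0.0517, adjusted p = 0.0517).

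**Figure D4:**
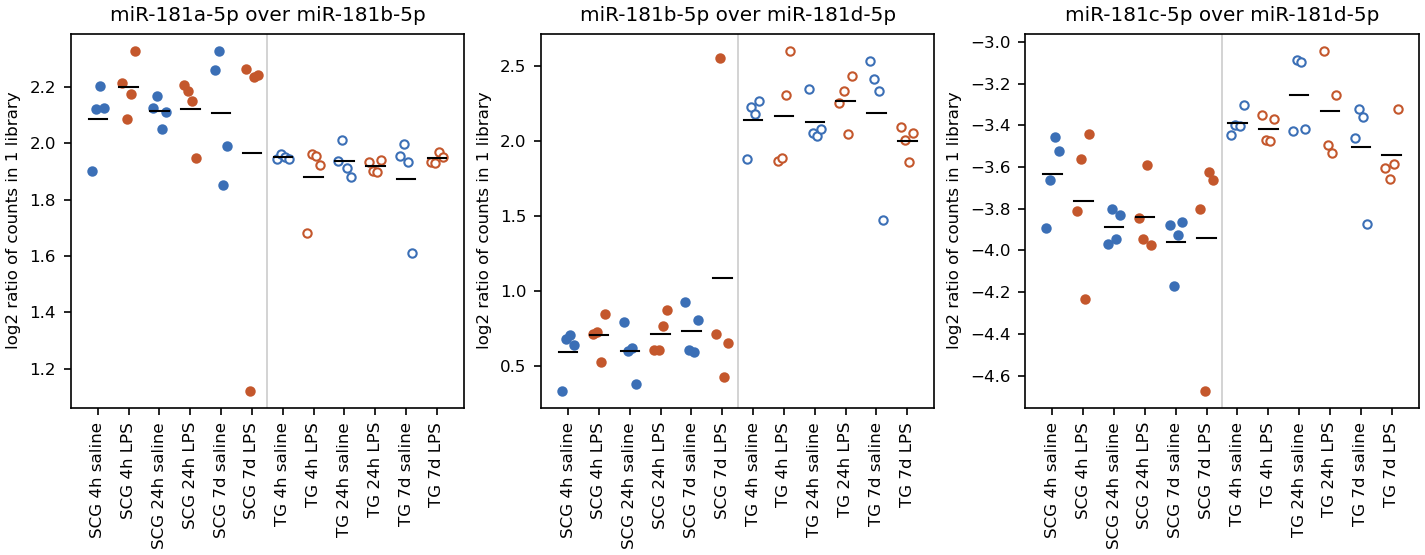
Log2 ratio of counts within each library for 3 pairs of members, by group, filled for SCG, open for TG, blue saline, orange LPS, bar the mean of 4. The middle panel separates the ganglia after saline, SCG at 0.34 to 0.93 and TG at 1.47 to 2.53, and 1 SCG 7d LPS library, replicate 2, lies among the TG values at 2.55.

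The second set of comparisons asked whether the family changed with LPS in either ganglion. None of the 4 members passed at 4 h, 24 h or 7 d in SCG or TG. At 4 h and 24 h the estimates were within -0.18 to 0.14 in SCG and -0.15 to 0.10 in TG on the log2 scale, with 95% intervals reaching from -0.88 to 0.92 in SCG and from -0.41 to 0.43 in TG. The SCG limits were those of miR-181b-5p (SE 0.427), from a fit whose shared estimate of spread included SCG 7d LPS replicate 2. The share of all miRNAs that passed was 0% of 506 at 4 h, 0.395% at 24 h and 0.593% at 7 d in SCG, and 0% of 538, 0.372% and 6.13% in TG. At 4 h, where no miRNA passed by edgeR, 13 miRNAs in SCG and 15 in TG had an unadjusted p below 0.05, and the members were not among them. DESeq2 called 1 and 2 there.

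Lists of inflammation-linked and of blood cell miRNAs are given for the same libraries. Of 10 tested inflammation-linked miRNAs in SCG, 2 rose at 24 h and 3 at 7 d. Of 11 in TG, 2 rose at 24 h, and at 7 d 4 rose and 1, the neuronal miR-9-5p, fell (-0.71 ± 0.12, edgeR adjusted p = 0.00115). Those that rose at 24 h in each ganglion were miR-155-5p, induced in activated macrophages, and miR-21a-5p. miR-155-5p gave log2 changes of 3.05 ± 0.39 in SCG (adjusted p = 7.93e-05) and 1.93 ± 0.36 in TG (adjusted p = 0.00819). miR-146a-5p, which dampens NF-kB signalling, joined at 7 d with 2.22 ± 0.31 in SCG (adjusted p = 0.000421) and 1.45 ± 0.20 in TG (adjusted p = 0.000239), and miR-146b-5p rose in TG (0.56 ± 0.13, adjusted p = 0.0123; all by edgeR). Of 11 blood cell miRNAs, 1 rose at 24 h in each ganglion, miR-155-5p, and 2 at 7 d in each, miR-155-5p and miR-146a-5p. Those that rose are also in the inflammation-linked list. With all libraries of a ganglion in the fit, no miRNA of the blood cell list alone rose. At 7 d in TG 1 of this list, miR-342-3p, fell (-0.46 ± 0.09, edgeR adjusted p = 0.00561). None of either list passed at 4 h. Both miRNAs that fell were higher in the TG saline libraries of 7 d than in those of 4 h and 24 h, miR-9-5p by 0.68 ± 0.10 (adjusted p = 0.000352) and miR-342-3p by 0.34 ± 0.08 (adjusted p = 0.00579). With replicate 3 as the only TG 7d saline library, the LPS estimate was -0.16 for miR-9-5p, -0.49 for miR-342-3p and 1.21 for miR-146a-5p. With 1 library in that group, passing or not was not read. Without SCG 7d LPS replicate 2, miR-21a-5p and both arms of miR-155 passed in SCG at 4 h. At 24 h 5 miRNAs of the lists then passed, miR-155-5p, miR-21a-5p, miR-146a-5p, miR-222-3p and, of the blood cell list alone, miR-142a-3p. At 7 d the same 3 as before passed, where miR-146a-5p gave 2.12 (edgeR adjusted p = 0.00145). The members stayed at 0 of 4 in SCG at each time without that library, against 0.584%, 1.17% and 0.584% of 514 miRNAs.

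In SCG at 7 d the largest estimate in the family was that of miR-181b-5p, and it rested on 1 library. miR-181b-5p was at 878.7, 5067, 728.9 and 708.2 CPM in LPS replicates 1 to 4 and at 940.1, 800.2, 780.2 and 836.1 CPM after saline. LPS replicate 2 was high and the other 3 lay within or below the saline range. The log2 change was 1.10 ± 0.44 (edgeR adjusted p = 0.165), and without replicate 2 it was -0.09 ± 0.10 (adjusted p = 0.698).

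miR-181a-5p showed the same library at 11027 CPM beside 4218, 3433 and 3349 CPM, against 4504, 4018, 2818 and 3322 CPM after saline. Replicate 2 again stood alone above the saline range. Its change was 0.60 ± 0.27 (edgeR adjusted p = 0.218) with and 0.05 ± 0.12 (adjusted p = 0.864) without that library. miR-181d-5p reached 863.0 CPM there, beside 448.7 to 540.7 CPM in the other LPS replicates, while miR-181c-5p was at 33.5 CPM, the lowest of its group.

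The 3p arms of that library differed by locus. miR-181a-1-3p was at 348.7 CPM against 19.8 to 26.0 CPM in the other 3 LPS replicates, and miR-181a-2-3p at 75.9 against 24.2 to 33.3 CPM. The a-1 arm thus made up 82.1% of both (95% Wilson interval 80.0 to 84.1, 1071 of its reads against 233), where the other 3 gave 38.0% to 47.5%. miR-181b-1-3p, from the hairpin beside Mir181a-1, had 57 counts there and 2 or 3 in the other LPS replicates, while miR-181b-2-3p had 2 counts there and 1 to 3 in the others. miR-181c-3p was at 27.4 CPM there, against at most 15.7 CPM in the other 23 SCG libraries. It made up 44.9% of both miR-181c arms there, against 8.62% to 20.6% in the other LPS replicates. How reads were assigned between miR-181c-3p and the similar miR-181a-1-3p was not given. The estimate for miR-181a-1-3p at 7 d was 1.88 ± 0.66 (edgeR adjusted p = 0.13) with and -0.18 ± 0.19 (adjusted p = 0.678) without replicate 2. In the same library the summed neuronal list was at 35905 CPM against 8635 to 19127 CPM in the other 23 SCG libraries, and the red cell list (4 miRNAs) at 2601 against 498.4 to 2208 CPM. The epithelium and pituitary list (8 miRNAs) was at 11198 CPM there, against a median of 634.9 and a highest value of 12841 CPM in the others. The part of these and of the leukocyte, muscle and glial lists in the values of the family was not tested.

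**Figure D5:**
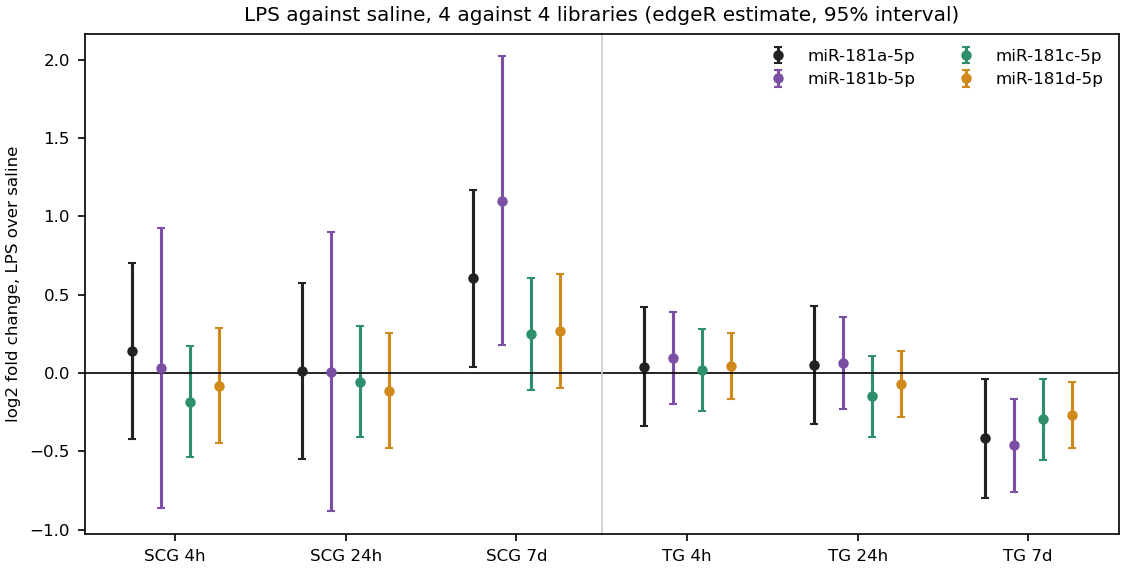
Log2 fold change of LPS over saline for the 4 members at each time in SCG and TG, 4 against 4 libraries, with 95% intervals. No member passed after adjustment. The SCG 7d values include replicate 2, and the 4 TG 7d values lie below 0, between -0.46 and -0.27.

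In TG at 7 d the 4 members had estimates below 0, none of which passed. miR-181b-5p was at 1355, 1402, 1202 and 1313 CPM after LPS and at 2394, 2077, 1514 and 1334 CPM after saline. The LPS libraries were close together, saline replicates 1 and 2 stood high, and saline replicate 4 lay among the LPS values. Its change was -0.46 ± 0.14 (edgeR adjusted p = 0.0563). It passed with relative log expression (-0.47, adjusted p = 0.042), library totals (-0.54, adjusted p = 0.0234), no sex term (-0.47, adjusted p = 0.0442), no filter (-0.47, adjusted p = 0.00224) and DESeq2 (-0.47, adjusted p = 0.02). It also passed without any 1 of TG 24h LPS replicate 3, TG 4h LPS replicates 1, 2 or 4, TG 4h saline replicate 1 and TG 7d saline replicates 3 or 4 (values of -0.55 to -0.44).

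miR-181a-5p gave -0.42 ± 0.18 (edgeR adjusted p = 0.166), from 5178, 5339, 4705 and 5082 CPM after LPS and 9277, 8294, 5775 and 4077 CPM after saline. It passed without TG 7d saline replicate 4 (-0.57, adjusted p = 0.0348) and without the low-count filter (-0.43, adjusted p = 0.000797). The saline group spanned more than the LPS group on each side. miR-181d-5p gave -0.27 ± 0.10 (adjusted p = 0.107), from 318.1, 349.5, 330.5 and 316.3 CPM after LPS and 414.2, 390.6, 300.5 and 480.3 CPM after saline. Here saline replicate 4 was the highest and replicate 3 the lowest library. It passed without replicate 3 (-0.36, adjusted p = 0.00328) and with library totals (-0.36, adjusted p = 0.0431). miR-181c-5p gave -0.29 ± 0.12 (adjusted p = 0.15), from 25.9 to 31.4 CPM after LPS and 29.0 to 38.9 CPM after saline.

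The spread lay in the saline libraries of that time. The summed neuronal list was at 57730, 57504 and 53017 CPM in TG 7d saline replicates 1, 2 and 4, against 31177 CPM in replicate 3 and 26318 to 36639 CPM over the 21 other TG libraries. The summed sensory neuron list was at 57037 to 61583 CPM in the 3 and 60924 to 88281 CPM in the 21. Their part in the values of the family was not tested. Against the 8 TG saline libraries of 4 h and 24 h instead, the 7 d LPS estimates were -0.10 for miR-181a-5p, -0.10 for miR-181b-5p, -0.19 for miR-181c-5p and 0.03 for miR-181d-5p, and none passed (edgeR adjusted p = 0.892 to 0.94). At 7 d, 33 miRNAs passed in TG, 10 higher (1.86%) and 23 lower (4.28%), a split of 7 to 42 with library totals.

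Saline libraries of TG at 7 d were also compared with those of 4 h and 24 h, and 1 of the 4 members passed, as did 13.6% of 538 miRNAs (10.4% higher and 3.16% lower, that is 56 and 17, or 77 and 7 with library totals). miR-181d-5p was at 309.7 to 340.8 CPM in the 8 earlier libraries (median 321.4) and at 300.5 to 480.3 CPM at 7 d, where 3 of 4 libraries lay above the earlier range and replicate 3 below it. Its rise of 0.30 ± 0.09 (edgeR adjusted p = 0.0256) was lost without TG 4h saline replicates 2, 3 or 4 or TG 7d saline replicates 1, 2 or 4, leaving each out in turn (0.16 without the last, adjusted p = 0.218), and without the low-count filter (0.31, adjusted p = 0.131). Estimates were 0.36 ± 0.12 for miR-181b-5p (adjusted p = 0.0501, and 0.00572 to 0.0434 with relative log expression, library totals, no filter, no sex term or DESeq2), 0.32 ± 0.16 for miR-181a-5p (adjusted p = 0.178) and 0.10 ± 0.11 for miR-181c-5p (adjusted p = 0.562). miR-181b-5p also passed without any 1 of TG 4h LPS replicates 1, 2 or 4, TG 4h saline replicate 4, TG 24h LPS replicate 3 and TG 7d saline replicates 3 or 4 (0.34 to 0.48). miR-181a-5p passed without TG 7d saline replicate 4 (0.50, adjusted p = 0.0327) and without the filter (0.32, adjusted p = 0.00312). In SCG none of the 4 passed in this comparison, nor did any of 506 miRNAs by edgeR, 22 of which had an unadjusted p below 0.05 and 0 of which DESeq2 called.

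Whether LPS acted differently in the ganglia was tested as the difference of their log2 changes, TG minus SCG. None of the members passed at 4 h, 24 h or 7 d, where 0%, 0% and 1.39% of 577 miRNAs passed (at 7 d 0.173% higher and 1.21% lower). At 4 h and 24 h, 22 and 20 miRNAs had an unadjusted p below 0.05, and DESeq2 called 0 and 6. At 7 d the values were -1.53 ± 0.45 for miR-181b-5p (edgeR adjusted p = 0.055) and -0.97 ± 0.32 for miR-181a-5p (adjusted p = 0.0727), which without SCG 7d LPS replicate 2 became -0.38 ± 0.18 (adjusted p = 0.287) and -0.46 ± 0.24 (adjusted p = 0.309). Leaving out SCG 7d LPS replicate 1, 3 or 4 instead, which keeps replicate 2, made both pass (adjusted p = 0.0112 to 0.0315). A change of the LPS effect over the 3 times was not detected for any member in SCG (0% of 506 miRNAs passed by edgeR, 21 with an unadjusted p below 0.05, and 0 of 514 without SCG 7d LPS replicate 2) or TG (1.49% of 538). Within-library ratios of members did not pass between LPS and saline in any group (adjusted p = 0.914 or above, where 4 against 4 libraries allow an exact permutation p of 0.0286 at the least). This adjustment ran over the ratios of all these comparisons together, so a ratio at that least p could not pass unless many others reached it. The ratio of miR-181c-3p to miR-181c-5p in SCG at 4 h had that permutation p and an adjusted p of 0.914. The absence of calls therefore could not show that the ratios stayed the same.

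Male and female libraries did not differ in the members by the same test, with 0 of 4 in SCG and 0 of 4 in TG, against 0.988% of 506 and 0% of 538 miRNAs by edgeR (in TG 24 had an unadjusted p below 0.05 and DESeq2 called 0). The estimates, male over female, ran from -0.38 to 0.01 on the log2 scale in SCG and from -0.08 to -0.04 in TG. Without SCG 7d LPS replicate 2, a female library, the SCG estimates ran from -0.17 to -0.02, with 0 of 4 members and 6.23% of 514 miRNAs passing.

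Over all 48 libraries miR-181a-5p and miR-181b-5p ran together (r = 0.954 of log2 CPM, and 0.898 for deviations from the group means). miR-181d-5p ran against them over libraries (r = -0.427 and -0.372), and with miR-181c-5p at 0.503. Deviations of miR-181d-5p from the group means had r = 0.369 with miR-181a-5p and 0.590 with miR-181b-5p, and -0.179 and -0.07 without SCG 7d LPS replicate 2. The pair miR-181a-5p and miR-181b-5p kept 0.903 without it. These are descriptions over libraries that share ganglion and depth.

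Among 476 other miRNAs tested in each ganglion, those most like miR-181a-5p over the 48 libraries were miR-423-3p (r = 0.844), miR-25-3p (0.839) and the neuron-enriched miR-128-3p (0.834), and the same 3 led for miR-181b-5p (0.897, 0.890 and 0.880). Without SCG 7d LPS replicate 2 the list for miR-181b-5p was miR-128-3p (0.932), miR-340-3p (0.932) and miR-383-5p (0.926). For miR-181d-5p they were miR-532-5p (0.894), miR-10a-5p (0.870) and miR-10b-5p (0.842), and without that library miR-134-5p (0.959), miR-370-3p (0.951) and miR-668-3p (0.951), members of the imprinted Dlk1-Dio3 cluster. For miR-181c-5p the highest value was lower than for the other members, 0.534 for miR-532-5p, followed by miR-10a-5p (0.525) and miR-615-3p (0.522), and without that library 0.580 for miR-410-3p. For deviations from the group means, miR-181a-5p was most like miR-150-5p (0.823), miR-423-3p (0.775) and miR-25-3p (0.763), and miR-181b-5p most like miR-92a-3p (0.898), miR-93-5p (0.880) and miR-423-3p (0.878). Those lists rest on SCG 7d LPS replicate 2: without it miR-615-3p led for both, at 0.749 and 0.793. For miR-181d-5p the deviations were most like those of miR-128-3p (0.708), miR-130b-5p (0.701) and miR-467a-5p (0.701), and without that library those of miR-668-3p (0.798). For miR-181c-5p they were miR-6945-3p (0.410), miR-29a-3p (0.388) and miR-125a-3p (0.355), and without it miR-467a-5p led (0.402).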

How the data were processed

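The authors deposited 1 table of whole-number counts per mature miRNA, without normalisation. Libraries were made from 140 ng of total RNA, per the labels' protocols. FastQC 0.11.9 and GRCm39 are named in the submitters' processing notes, and for alignment and counting no program was given in the sources used here. The tRNA fragment tables were not used. Counts were tested with edgeR 4.0.16 in R 4.3.3 (quasi-likelihood F-test, TMM scaling, filterByExpr by group at a minimum of 10 counts, dispersion estimated robustly, additive sex term, 24 libraries of a ganglion per LPS fit and 48 for differences between ganglia), Benjamini-Hochberg over all miRNAs per comparison, called at an adjusted p below 0.05. The fit was tested on simulated data. Alternatives were DESeq2 1.42.0, other scalings, no filter, no sex term and left-out libraries. Ratios added 1 to each count and used 100000 permutations, or all 70 assignments for 4 against 4. The smallest chi-square per degree of freedom over 72 replicate pairs was 25.2, so no 2 libraries were taken as one. Counts from 1774047 to 5592766 per library limit miR-181c-5p and the 3p arms most, and intervals on shares cover counting error only. The text names the members, the 3p arms, the 3 miRNAs most like each member by each of 2 measures, called miRNAs of 2 fixed lists (13 inflammation-linked and 11 blood cell miRNAs, in part the same) and marker lists as sums. The members and lists were chosen with earlier results of these data known. Replicates came from different mice, per the labels.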

Additional observations from a re-analysis of the deposited data

Results flagged for a closer look

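In a group of 4 libraries, a value was singled out where its gap to the nearest other library exceeded Dixon's 95% limit as a share of the group's range. This held in 10 of 84 groups over 7 miRNAs, and chance gives about 1 in 20. In SCG 7d LPS replicate 2, miR-181a-5p was at 11026.9 CPM (others 3349 to 4218), miR-181b-5p at 5067 CPM (others 708.2 to 878.7) and miR-181a-1-3p at 348.7 CPM (others 19.8 to 26.0). miR-181b-5p was low in TG 24h LPS replicate 3, at 1338.9 CPM against 1503 to 1532. miR-181d-5p was high in SCG 4h saline replicate 1, at 582.2 CPM against 473.2 to 490.3, a library whose summed muscle markers were at 94360 CPM. miR-181a-1-3p was low in SCG 24h saline replicate 3 (18.49 CPM) and SCG 7d saline replicate 3 (16.26 CPM) and high in SCG 24h LPS replicate 2 (32.99 CPM). miR-181c-3p was high in TG 24h saline replicate 4 (11.71 CPM) and TG 7d saline replicate 2 (12.22 CPM).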

How the results depend on the processing

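No paired analysis was possible because the labels' library numbers are unique and replicate numbers only follow accession order. Counts over all miRNAs tested stand in brackets where they were made. Of 4 members, the number called in TG 7d LPS against saline was 0 (33 of 538). It was 1 with relative log expression (35), no sex term or DESeq2 (55). It was 2 with library totals (49) or no filter (54 of 1418), and 0 to 2 leaving out 1 library. For TG saline at 7 d against earlier times it was 1 (73 of 538), and 0 to 2 leaving out 1. It was 2 with relative log expression (74), library totals (84), no filter (97 of 1418), no sex term or DESeq2 (85). For TG against SCG after LPS it was 2 (289 of 560), then 1 without the filter (273 of 1424), and 2 to 4 leaving out 1. It was 4 without SCG 7d LPS replicate 2, 1 of those left out in turn. For the difference of LPS effects at 7 d it was 0 (8 of 577), then 2 without the filter (84 of 1505), 1 without the sex term, 2 with DESeq2 (72 of 498) and 0 to 3 leaving out 1. For the LPS effect over times in TG it was 0 (8 of 538), and 2 without the filter. SCG 7d LPS replicate 2 and SCG 4h saline replicates 1 and 2 were also left out together. Signs then turned in SCG at 7 d for miR-181b-5p (-0.11), miR-181a-1-3p (-0.20), miR-181a-2-3p (-0.17) and miR-181c-3p (-0.16). They also turned for miR-181a-1-3p between ganglia after LPS (0.54), a fit without saline libraries, and for miR-181a-2-3p in the 7 d difference (0.30). Leaving out 1 library gave -0.088 to 1.44, -0.18 to 2.35, -0.12 to 0.47 and -0.14 to 0.87 for those 4 in SCG, -0.25 to 0.54 for the fifth value and -0.25 to 0.31 for the last. Against earlier saline, TG 7d LPS gave 0.032 for miR-181d-5p and -0.084 for miR-181a-2-3p. Without TG 7d saline replicates 1, 2 and 4 (chosen after seeing the data) miR-181d-5p turned to 0.12 for LPS, miR-181d-5p, miR-181a-1-3p and miR-181c-5p to -0.087, -0.087 and -0.14 for saline at 7 d, and miR-181c-3p to -0.0067 between ganglia after saline (-0.047 with library totals). These TG values leave 1 library in the group, assumed to vary like the others. The causes were not tested. The count of ratios called between ganglia was 7, and 7 or 8 under each alternative. Over all miRNAs, the number called for LPS at 7 d was 3 in SCG (69 without the filter, 52 with DESeq2), 33 in TG (54 and 55) and 8 for their difference (84 and 72). At 24 h it was 2 in each ganglion (15 and 7 in SCG, 20 and 3 in TG), at 4 h it was 0 (24 and 1 in SCG, 16 and 2 in TG), and between the sexes in SCG it was 5 (40 and 25).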
